A study of Mus musculus with 6 samples.

Results

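The transforming growth factor beta (TGF-beta) system was described here through 9 genes: the ligand gene Tgfb1, the receptor genes Tgfbr1 and Tgfbr2, the signal transducer genes Smad2, Smad3 and Smad4, the inhibitor genes Smad7 and Skil, and Tgfbi, a matrix protein gene named for its induction by the ligand. They were taken by gene symbol, and all 9 of the 9 names were found among the 24054 genes of the table and passed the filter on low counts, which left 12689 genes for testing. The samples were mouse macrophages differentiated from bone marrow over 7 days with L929-conditioned medium, a source of the macrophage growth factor M-CSF. Wild-type C57BL/6 cells gave 1 untreated library and 1 library after oxidised low-density lipoprotein (oxLDL, 50 µg/ml for 24 hours), and cells of Kindlin3-integrin mutant mice on the same background gave 2 untreated and 2 oxLDL libraries. oxLDL is taken up by scavenger receptors and turns macrophages into the foam cells of atherosclerotic plaques, and kindlin-3, encoded by Fermt3, activates integrins in blood cells. The mutant libraries are titled KI, and the labels give neither the kind of mutation nor the sex or age of the mice. The labels do not say whether the mutant replicates are separate mice or cultures. The p-values therefore reflect only how far these libraries differ, which may be technical, and each wild-type group rests on a single library.

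TGF-beta is secreted bound to a latency peptide, and integrins and proteases release it. The free ligand binds the type II receptor (Tgfbr2), which recruits and phosphorylates the type I receptor (Tgfbr1). The type I receptor phosphorylates SMAD2 and SMAD3, which join SMAD4 and enter the nucleus to bind DNA. SMAD7 blocks the type I receptor, and SnoN, the product of Skil, represses SMAD complexes on DNA. In macrophages TGF-beta is known as a brake on inflammatory activation, as a signal released after the uptake of dying cells, and in the brain as a requirement for microglial identity.

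After oxLDL, 4 of the 9 genes fell, 1 rose and 4 did not pass. Tgfbi fell 7.45-fold, Smad3 4.06-fold, Skil 2.61-fold and Tgfb1 1.56-fold, while Smad4 rose 1.30-fold. These 5 called genes (55.6%) compare with 40.5% of all tested genes called in the same comparison of 3 oxLDL with 3 untreated libraries. The 4 lower genes (44.4%) compare with 21.4% of all tested genes called lower, and the 1 higher gene with 19.1% called higher. The median log2 fold change was -0.29 over the 9 genes and 0.01 over all genes tested. No test was made of the group against other genes. The test was edgeR's quasi-likelihood test with genotype as a covariate, called at a false discovery rate under 0.05 over all genes tested. Between genotypes none of the 9 passed in any comparison.

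Total counts assigned to genes ranged from 11281692 to 24273551 per library. Fermt3, the gene of the mutated protein, measured 403 CPM (counts scaled to a common library size) in wild-type untreated and 188 CPM in wild-type oxLDL cells, 241 and 249 CPM in the mutant untreated pair and 146 and 153 CPM in the mutant oxLDL pair. Its RNA was thus present in every library, and these counts do not check the mutation itself. Of 10 macrophage markers all were present, among them Csf1r, the receptor of the growth factor, at 646 to 1950 CPM, and Cd68 at 858 to 2136 CPM. The macrophage marker sum itself differed between libraries, from 10396 CPM in wild-type oxLDL to 30768 CPM in mutant untreated replicate 1. Of 10 fibroblast markers, all in the table, the sum was 0.256 to 3.26 CPM in each library. The summed level of 21 pancreatic markers was 277 CPM in untreated wild-type cells, 206 and 163 CPM in mutant oxLDL cells, and only 1.85 CPM in wild-type oxLDL and 3.09 and 3.47 CPM in mutant untreated cells. Pancreatic RNA thus stood opposite ways with oxLDL in the 2 genotypes. Of 8 platelet markers, Ppbp was at 0 counts in 5 of the 6 libraries, whereas the sum was 23.1 and 109 CPM in wild-type untreated and oxLDL cells and 98.5, 58.4, 306 and 239.7 CPM in the mutant untreated and oxLDL pairs. Vwf held most of that sum in 5 libraries (40.0 to 275 CPM), and in wild-type untreated cells Pf4 (13.9 CPM) exceeded Vwf (7.52 CPM). Neutrophil markers summed to 45.2 CPM in wild-type untreated cells and to at most 7.36 CPM elsewhere. Among lymphocyte markers Cd3e, Cd3g and Nkg7 were at 0 in every library, and the sum over the list was 14.8 to 35.3 CPM untreated and 6.74 to 11.8 CPM with oxLDL. Of 8 dendritic cell markers the sum was 12.1 and 15.4 CPM in wild type and 46.2 to 61.1 CPM in the mutant, where Itgax made up 42.5 to 58.7 CPM.

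**Figure D1:**
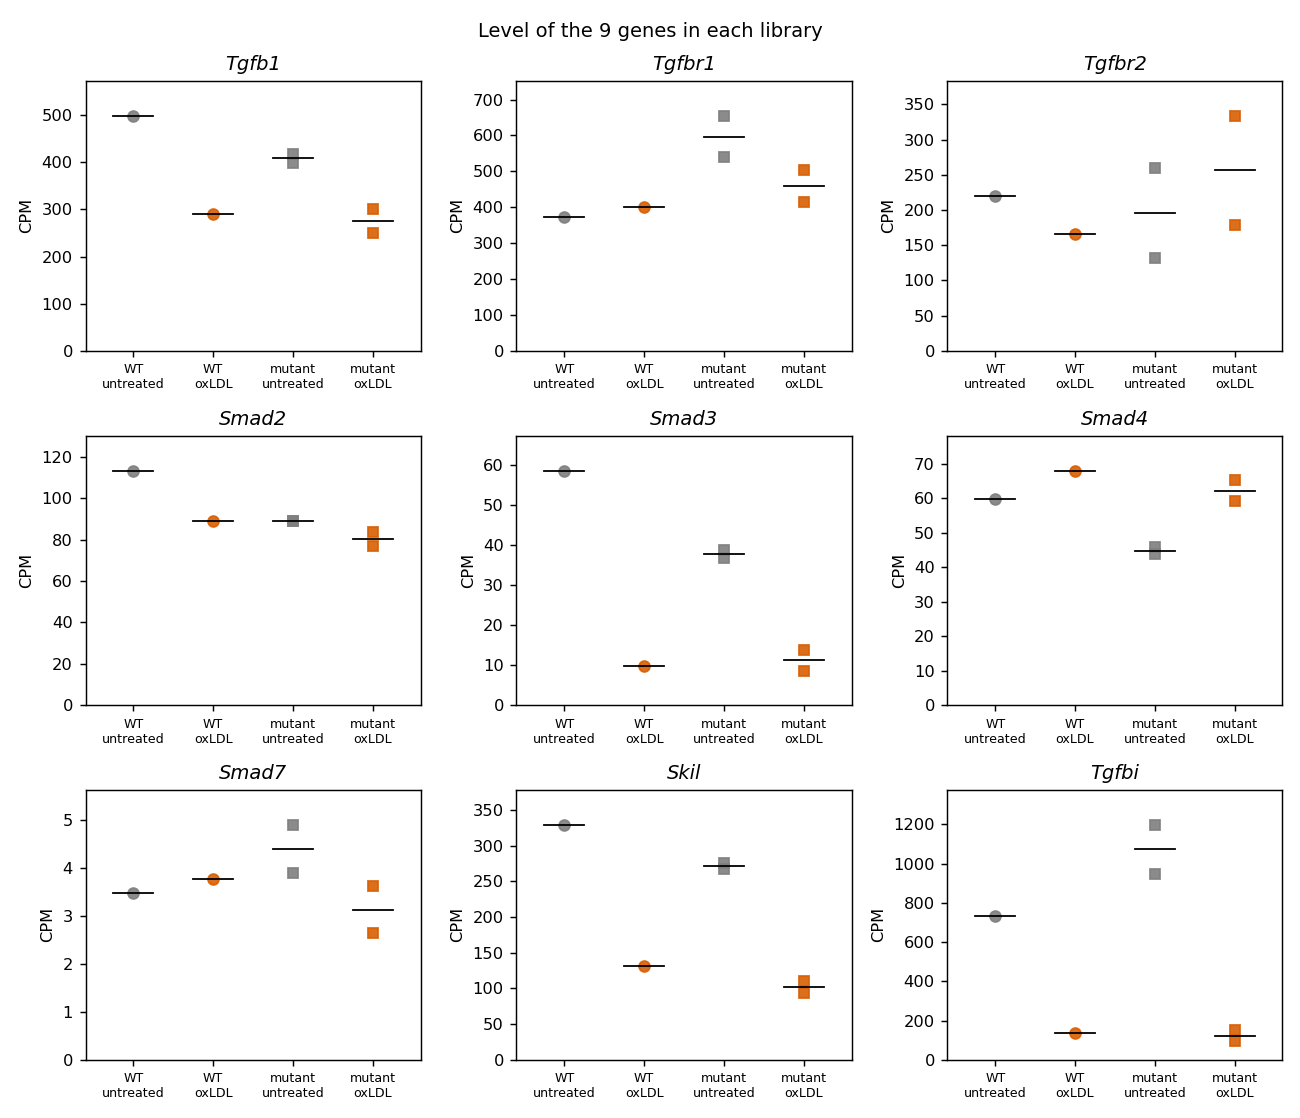
Level of each gene in CPM (y axis from 0) in the 6 libraries, by group; circles are wild-type and squares mutant libraries, grey untreated and orange oxLDL, and the bar is the group mean. Tgfb1, Smad2, Smad3, Skil and Tgfbi have all 3 oxLDL libraries below all 3 untreated ones, whereas Tgfbr2 differs more between mutant replicates than between groups.

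Promoter sequences are shown for the 3 genes that fell and have an entry in the RefSeq promoter table, so that the stretch in front of each start can be read beside its change. Each is the 250 bases before the annotated start on GRCm38.p6 in the sense of the gene, 5′ to 3′, and may differ from the build behind the authors' counts, which no source used here gives reliably. Capitals mark GC boxes (GGGCGG or its reverse complement CCGCCC) and SMAD boxes (CAGAC or its reverse complement GTCTG). Tgfb1 is at chr7:25686752-25687001 on the plus strand, Smad3 at chr9:63757995-63758244 on the minus strand and Tgfbi at chr13:56609336-56609585 on the plus strand.
Tgfb1: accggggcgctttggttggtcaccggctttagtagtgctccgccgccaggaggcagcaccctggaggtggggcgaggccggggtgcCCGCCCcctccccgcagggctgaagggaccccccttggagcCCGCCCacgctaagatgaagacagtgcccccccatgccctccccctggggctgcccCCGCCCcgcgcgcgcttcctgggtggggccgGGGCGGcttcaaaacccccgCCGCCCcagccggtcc
Smad3: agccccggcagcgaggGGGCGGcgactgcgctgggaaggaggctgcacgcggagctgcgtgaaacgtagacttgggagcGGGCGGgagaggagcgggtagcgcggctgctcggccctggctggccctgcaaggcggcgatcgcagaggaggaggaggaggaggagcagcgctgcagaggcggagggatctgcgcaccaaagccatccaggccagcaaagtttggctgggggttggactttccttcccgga
Tgfbi: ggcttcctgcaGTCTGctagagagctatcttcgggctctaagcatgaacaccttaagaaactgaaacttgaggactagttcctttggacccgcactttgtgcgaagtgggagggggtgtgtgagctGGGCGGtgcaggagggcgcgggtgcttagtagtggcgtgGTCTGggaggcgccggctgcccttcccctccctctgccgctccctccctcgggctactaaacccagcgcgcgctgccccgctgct

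The Tgfbi promoter holds 2 SMAD boxes, whose first bases lie at -239 and -85 from the start, and the Tgfb1 and Smad3 promoters hold none. Of the genes that did not pass, Tgfbr2 has 1 SMAD box at -160, and promoter 2 of Tgfbr1 has 1 at -203. A SMAD box is found in 49.6% of 32851 promoter windows of 300 bases (these 250 bases and the first 50 after the start), so its presence is common. The palindromic SMAD-binding element GTCTAGAC is in 0.213% of the windows, and the AP-1 motif TGANTCA in 7.81%. Neither was in the windows of Tgfb1, Smad3 or Tgfbi. GC boxes, found in 35.7% of windows, numbered 6 in that of Tgfb1, 2 in that of Smad3 and 2 in that of Tgfbi. A match is a stretch of letters and says nothing of binding in these cells.

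The ligand gene Tgfb1 measured 498 CPM in wild-type untreated and 290.0 CPM in wild-type oxLDL cells. In the mutant it measured 418 and 398 CPM untreated and 301 and 250.3 CPM with oxLDL. All 3 oxLDL libraries lay below all 3 untreated ones. The log2 fold change with oxLDL was -0.64 ± 0.11 (SE; edgeR adjusted p = 0.00436) over all 6 libraries. In the mutant alone it was -0.57 ± 0.12 (edgeR adjusted p = 0.0157). Leaving out mutant untreated replicate 1 (adjusted p = 0.0666), mutant untreated replicate 2 (0.0510) or mutant oxLDL replicate 2 (0.0732) took this call away. In wild type the 2 libraries differed 1.72-fold, with no replicate check. Per kilobase of merged exon, Tgfb1 was the most abundant of the 9 genes in each oxLDL library (115 to 138 CPM per kb), and second to Tgfbi in each untreated one (183 to 229 CPM per kb).

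The type I receptor gene Tgfbr1 measured 372 CPM in wild-type untreated and 400.0 CPM in wild-type oxLDL cells. In the mutant it measured 653 and 539 CPM untreated and 415 and 503 CPM with oxLDL. Both mutant oxLDL libraries thus lay below both mutant untreated ones, while the wild-type pair moved the other way by 0.10 on the log2 scale. The log2 fold change with oxLDL was -0.22 ± 0.15 over all libraries (edgeR adjusted p = 0.292) and -0.38 ± 0.15 in the mutant (adjusted p = 0.100), and neither passed. The difference of the oxLDL change between genotypes, -0.48 on the log2 scale with a 95% interval from -1.12 to 0.15, did not pass either (edgeR adjusted p = 0.556).

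Tgfbr2, the ligand-binding type II receptor gene, measured 219.9 CPM in wild-type untreated and 166 CPM in wild-type oxLDL cells. The mutant libraries measured 133 and 259 CPM untreated and 179 and 333 CPM with oxLDL, replicate 1 being the lower of each pair. Replicates of 1 group thus differed more than the groups did, at 196 ± 89.7 CPM untreated and 256 ± 109 CPM with oxLDL (SD, n = 2 each). The log2 fold change with oxLDL was 0.12 ± 0.34 (edgeR adjusted p = 0.800), with a 95% interval from -0.69 to 0.94 that includes falls and rises of over 1.5-fold. Its sign turned without mutant untreated replicate 1 (-0.18) or mutant oxLDL replicate 2 (-0.24). Per kilobase, Tgfbr1 exceeded Tgfbr2 in every library, by 1.93 to 6.29 times.

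Smad3, a receptor-activated transducer that binds SMAD boxes, fell most among the SMAD genes. It measured 58.6 CPM in wild-type untreated and 9.84 CPM in wild-type oxLDL cells. In the mutant it measured 36.9 and 38.9 CPM untreated and 13.9 and 8.52 CPM with oxLDL. All oxLDL libraries lay below all untreated ones, and the lowest untreated value was over 2 times the highest oxLDL value. The log2 fold change was -2.02 ± 0.24 over all libraries (edgeR adjusted p = 0.00128), -1.75 ± 0.23 in the mutant (adjusted p = 0.00320) and -2.56 between the wild-type libraries.

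Smad2, the other receptor-activated transducer of this pathway, measured 113 CPM in wild-type untreated and 88.8 CPM in wild-type oxLDL cells, and in the mutant 89.0 and 88.9 CPM untreated and 76.7 and 83.6 CPM with oxLDL. The oxLDL libraries lay below the untreated ones without overlap, the nearest 2 libraries being 88.8 and 88.9 CPM, and the log2 fold change of -0.22 ± 0.09 did not pass (edgeR adjusted p = 0.0858). The ratio of Smad2 to Smad3 per kilobase therefore moved with treatment. It was 1.14 in wild-type untreated and 1.43 and 1.35 in mutant untreated cells, against 5.34 in wild-type oxLDL and 3.27 and 5.81 in mutant oxLDL cells.

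Smad4, the shared partner of the receptor-activated SMADs, was the 1 gene of the 9 that rose. It measured 59.7 CPM in wild-type untreated and 68.0 CPM in wild-type oxLDL cells, and in the mutant 45.9 and 43.7 CPM untreated and 59.2 and 65.2 CPM with oxLDL. The groups overlapped, since mutant oxLDL replicate 1 lay just under wild-type untreated. Over all libraries the change was 0.38 ± 0.10 (edgeR adjusted p = 0.0242) on the log2 scale. This call ended when any 1 of the 4 mutant libraries was left out: adjusted p was 0.0839 and 0.0982 without mutant untreated replicates 1 and 2, and 0.0637 and 0.0701 without mutant oxLDL replicates 1 and 2. In the mutant the change was 0.47 ± 0.10 (edgeR adjusted p = 0.0159), and it no longer passed without mutant untreated replicate 2 (0.0786) or mutant oxLDL replicate 2 (0.0597).

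Smad7, the inhibitory SMAD that targets the type I receptor, was the least abundant of the 9 genes per kilobase in every library, with 44 to 73 counts in each. It measured 3.48 and 3.77 CPM in wild-type untreated and oxLDL cells, 3.88 and 4.88 CPM in the mutant untreated pair and 2.64 and 3.62 CPM in the mutant oxLDL pair. The mutant pairs did not overlap and the wild-type libraries moved the other way. With oxLDL the change was -0.29 ± 0.26 on the log2 scale (edgeR adjusted p = 0.409), with a 95% interval from -0.90 to 0.32, so at this depth the interval holds both a fall and a rise.

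Skil, the gene of the SMAD repressor SnoN, measured 329 CPM in wild-type untreated and 131 CPM in wild-type oxLDL cells. In the mutant it measured 268 and 275 CPM untreated and 93.2 and 111 CPM with oxLDL. The groups did not overlap, and the fall was of like size in the comparisons made: -1.38 ± 0.09 on the log2 scale over all libraries (edgeR adjusted p = 0.000188), -1.41 ± 0.11 in the mutant (adjusted p = 0.000730) and -1.32 between the wild-type libraries. It had the smallest p of the 9 genes over all libraries.

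Tgfbi, which encodes a secreted matrix protein that binds integrins and collagen, showed the largest change of the 9 genes. It measured 734 CPM in wild-type untreated and 135 CPM in wild-type oxLDL cells. In the mutant it measured 949 and 1196 CPM untreated and 96.7 and 149.5 CPM with oxLDL, or 1073 ± 175 and 123 ± 37.4 CPM (SD, n = 2 each). The log2 fold change was -2.90 ± 0.24 over all libraries (edgeR adjusted p = 0.000326), -3.12 ± 0.25 in the mutant (adjusted p = 0.000696) and -2.44 between the wild-type libraries. Per kilobase it was the most abundant of the 9 genes in the untreated libraries (270.4 to 441 CPM per kb) and came after Tgfb1 and Tgfbr1 in those given oxLDL (35.6 to 55.1 CPM per kb).

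**Figure D2:**
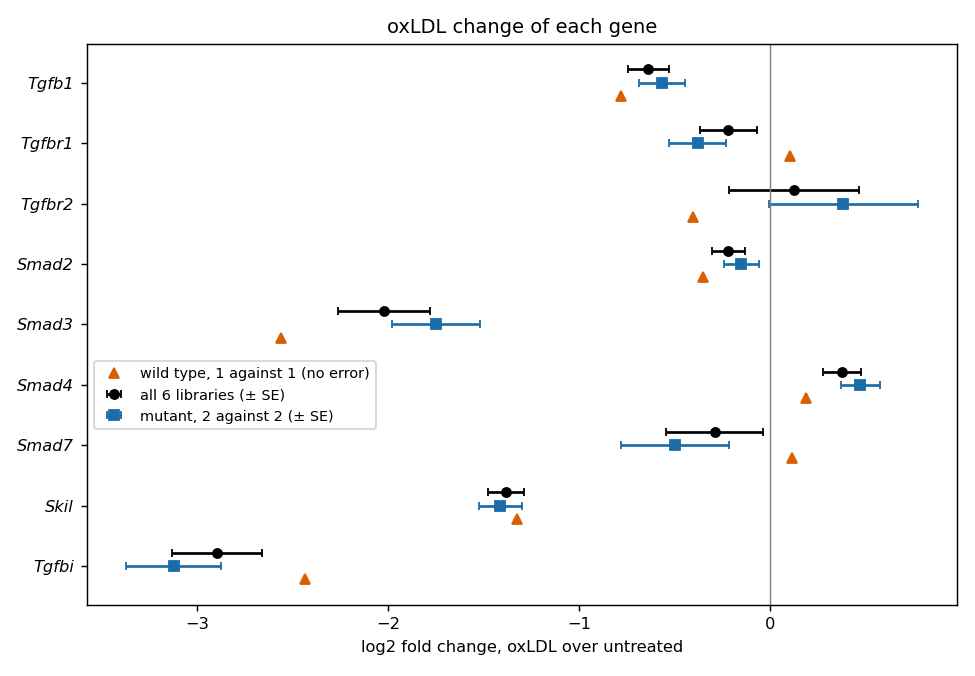
log2 fold change with oxLDL (x axis) of each gene over all 6 libraries (circles), in the mutant alone (squares), each ± SE, and between the 2 wild-type libraries (triangles, no error). Tgfbi, Smad3, Skil and Tgfb1 lie below 0 by all measures, and Smad4 above 0, whereas the wild-type value has the opposite sign to the mutant value for Tgfbr1, Tgfbr2 and Smad7.

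No overlap between the 3 oxLDL and the 3 untreated libraries was seen for 5 of the 9 genes, all lower with oxLDL, beside 23.3% of all tested genes lower in this way. In the mutant alone, 1 of the 9 genes rose and 4 fell, the same 5 genes as over all libraries, beside 35.6% of all tested genes called. Between the wild-type libraries 3 genes differed at least 2-fold (Smad3, Skil and Tgfbi, all lower). Of the 9840 genes that reached 5 CPM in 1 or both of them, 19.6% differed this much in either direction. Smad7, at 3.48 and 3.77 CPM, did not reach that level. In bulk RNA, fewer cells of a type and less RNA per cell cannot be told apart. Marker levels moved with treatment too. Among the macrophage markers, Csf1r, Emr1, Fcgr1, Cd14, Spi1 and Itgam were lower in all oxLDL than in all untreated libraries, Cd68 and Mertk were higher, and Lyz2 overlapped. The lymphocyte sum was lower and Vwf higher in all oxLDL libraries, and the pancreatic sum differed with treatment in opposite directions in the 2 genotypes. The part of these markers in the changes above was not tested.

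The comparison of genotypes asked whether macrophages of the mutant mice had other levels of these genes. Over both treatments, 0 of the 9 genes passed with edgeR's quasi-likelihood test of 4 mutant against 2 wild-type libraries, beside 4.05% of all tested genes, while 4 had an unadjusted p under 0.05 and DESeq2 called 1 (Skil). Tgfbr1 was higher in all 4 mutant than in both wild-type libraries (415 to 653 against 372 and 400.0 CPM), a separation shown by 8.49% of all tested genes in that direction and, of the 9 genes, by Tgfbr1 alone. The dendritic cell marker sum separated the genotypes in the same direction (46.2 to 61.1 against 12.1 and 15.4 CPM). Among its markers only Itgax separated in this way (42.5 to 58.7 against 6.14 and 13.7 CPM). Xcr1, by contrast, was highest in wild-type untreated cells (5.22 CPM). The part of these markers in the Tgfbr1 difference was not tested. The log2 difference of Tgfbr1 was 0.43 ± 0.16 (SE; edgeR adjusted p = 0.166), with a 95% interval from 0.05 to 0.82 before adjustment. Skil differed by -0.32 ± 0.10 (edgeR adjusted p = 0.114; DESeq2 adjusted p = 0.0448), Smad2 by -0.25 ± 0.09 (edgeR adjusted p = 0.157) and Smad4 by -0.27 ± 0.10 (edgeR adjusted p = 0.174). The other 5 genes had edgeR adjusted p between 0.371 and 0.968, and Tgfbr2 had the widest interval.

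Among untreated cells, 0 of the 9 passed with edgeR, beside 7.06% of all tested genes, with 3 at an unadjusted p under 0.05 and 1 called by DESeq2 (Tgfbr1). Tgfbr1 had the smallest p, at 596 ± 80.6 CPM in the mutant (SD, n = 2) against 372 CPM in the single wild-type library, a log2 difference of 0.68 ± 0.19 (SE; edgeR adjusted p = 0.0833; DESeq2 adjusted p = 0.0110). It passed with edgeR without mutant oxLDL replicate 1 (adjusted p = 0.0431). Smad3 measured 37.9 ± 1.44 CPM against 58.6 CPM, a difference of -0.63 ± 0.26 (edgeR adjusted p = 0.191) that passed without mutant oxLDL replicate 1 (0.0213) or 2 (0.0279). Smad4 and Smad2, at 44.8 ± 1.52 and 89.0 ± 0.108 CPM against 59.7 and 113 CPM, differed by -0.42 ± 0.12 and -0.35 ± 0.11 (edgeR adjusted p = 0.0959 and 0.113). The neutrophil marker sum was higher in the same wild-type library, as was the pancreatic one, and their part in these differences was not tested.

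Among oxLDL-treated cells, 0 of the 9 passed with edgeR, beside 0.481% of all tested genes, with 1 (Skil) at an unadjusted p under 0.05 and 0 called by DESeq2. Skil measured 102 ± 12.4 CPM in the mutant against 131 CPM in wild type, a log2 difference of -0.37 ± 0.14 (edgeR adjusted p = 0.307). Tgfbi was at 123 ± 37.4 CPM against 135 CPM, and Tgfb1 at 276 ± 35.7 against 290.0 CPM. Their 95% intervals of the log2 difference ran from -0.83 to 0.55 and from -0.44 to 0.29. The single wild-type value lay between the 2 mutant values for Tgfb1, Smad3 and Tgfbi.

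**Figure D3:**
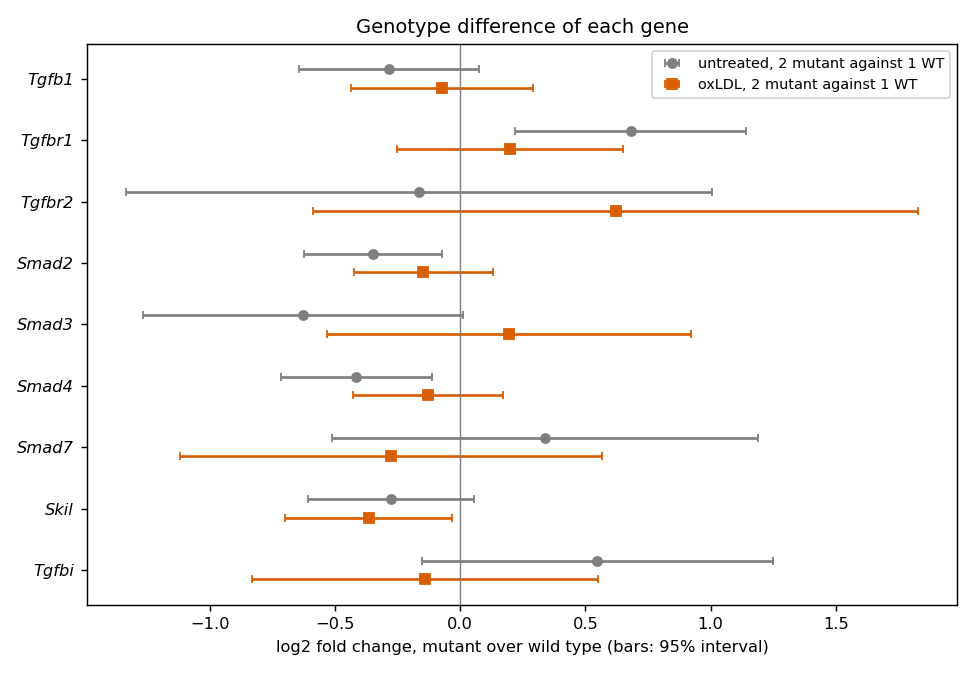
log2 difference between mutant and wild type (x axis, above 0 is higher in mutant) of each gene in untreated (grey circles) and oxLDL-treated cells (orange squares), with 95% intervals before adjustment for the number of genes. The whole interval lies above 0 for Tgfbr1 and below 0 for Smad2 and Smad4 among untreated cells, and below 0 for Skil among oxLDL-treated cells, and Tgfbr2 has the widest intervals.

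The interaction asked whether oxLDL changed these genes differently in the genotypes. It passed for 0 of the 9 with edgeR, beside 0.489% of all tested genes, with 0 at an unadjusted p under 0.05 and 0 called by DESeq2. The smallest p was that of Smad3, whose oxLDL fall was smaller in the mutant by 0.82 ± 0.40 on the log2 scale (edgeR adjusted p = 0.513), with a 95% interval from -0.15 to 1.80. For Tgfbi the difference was -0.69 ± 0.40, with an interval from -1.66 to 0.29, and for Skil -0.09 ± 0.19, with an interval from -0.56 to 0.38. Intervals this wide leave room for differences of over 2-fold for Smad3 and Tgfbi. The pancreatic marker sum also differed along this contrast (277 to 1.85 CPM with oxLDL in wild type, 3.09 and 3.47 to 206 and 163 CPM in the mutant), and its part in these values was not tested.

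The other genes of the pathway were taken from 8 lists of 101 genes in all, of which 87 were tested. Pmepa1 and Ltbp2 stand on 2 lists each and are counted once in these totals. With oxLDL 17 rose and 24 fell, so 47.1% were called beside 40.5% of all tested genes, with a median log2 fold change of -0.16. Of 9 tested genes for other ligands and latency proteins, 3 rose, 1 fell and 5 did not pass. Gdf15, a stress-induced member of the ligand family, measured 4.04 and 22.7 CPM in wild-type untreated and oxLDL cells, 6.35 and 3.11 CPM in the mutant untreated pair and 13.9 and 8.92 CPM in the mutant oxLDL pair (log2 fold change 1.71 ± 0.37, edgeR adjusted p = 0.0123). Inhba, the gene of the activin A subunit, was at no more than 0.212 CPM untreated and at 0.447 CPM in wild-type oxLDL and 2.68 and 1.29 CPM in mutant oxLDL cells. Ltbp1, which encodes a protein that anchors latent TGF-beta, was at no more than 0.495 CPM untreated and at 0.575, 1.78 and 2.03 CPM with oxLDL. Bmp1, a procollagen protease gene that is no TGF-beta ligand despite its name, fell from between 2.03 and 8.77 CPM to at most 0.383 CPM. Gdf15 no longer passed when mutant untreated replicate 2 was left out (adjusted p = 0.0601), and Ltbp1 no longer passed without any 1 of the 4 mutant libraries (adjusted p from 0.0730 to 0.108).

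Of 8 tested genes for activators of the latent ligand, 1 rose, 4 fell and 3 did not pass. Mmp14, a membrane-anchored matrix protease gene, had a log2 fold change of -2.00 ± 0.15 (edgeR adjusted p = 0.000234), from 135 to 33.3 CPM in wild type and from 330 and 285 to 90.3 and 64.1 CPM in the mutant. Itgav, the alpha v integrin subunit gene, fell 2.11-fold (edgeR adjusted p = 0.00552) and Mmp9, a gelatinase gene at no more than 4.53 CPM, 4.94-fold (adjusted p = 0.0185), while Furin, the gene of the protease that cuts the TGF-beta precursor, rose 1.72-fold (adjusted p = 0.00333). The 5 calls of this list became 3 without mutant oxLDL replicate 1. The Mmp9 call ended without mutant untreated replicate 2 (0.0607) or mutant oxLDL replicate 1 (0.0536). Between genotypes Mmp14 was higher in the mutant 2.30-fold (SE 0.16 on the log2 scale; edgeR adjusted p = 0.0244), a call that ended without wild-type untreated (0.108), mutant untreated replicate 1 (0.0729) or mutant untreated replicate 2 (0.0997).

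Of 12 tested receptor and co-receptor genes 2 rose, 1 fell and 9 did not pass. These 3 calls became 1 without mutant untreated replicate 2 or mutant oxLDL replicate 1, and 5 without mutant oxLDL replicate 2. Bmpr2, the type II receptor gene of bone morphogenetic proteins, rose 1.32-fold (edgeR adjusted p = 0.0150, ended without mutant untreated replicate 2 at 0.0519 or mutant oxLDL replicate 1 at 0.0590). Nrp1, a co-receptor gene, rose 1.78-fold (edgeR adjusted p = 0.0492), a call lost without either wild-type library (0.176 and 0.175), mutant untreated replicate 2 (0.158) or mutant oxLDL replicate 1 (0.138), and with RLE size factors (0.0530). Bmpr1b fell, from 0.256 CPM to 0 counts in wild type and from 2.03 and 1.63 CPM to 0.122 and 0.0495 CPM in the mutant. Bmpr1a, a type I receptor gene of bone morphogenetic proteins, was lower in the mutant by -1.23 ± 0.20 (edgeR adjusted p = 0.0362), at 12.7 to 22.5 CPM against 29.4 and 52.6 CPM, and lost its call without either wild-type library (0.0924 and 0.0873), either mutant untreated library (0.0617 and 0.132) or mutant oxLDL replicate 1 (0.0580). Of the 3 other tested SMAD genes, Smad1, a transducer of bone morphogenetic protein signals, fell 1.38-fold (edgeR adjusted p = 0.0212), a call that ended without wild-type untreated (0.0851), wild-type oxLDL (0.0826) or mutant untreated replicate 1 (0.0665), and 2 did not pass.

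Of 17 genes on a list of mainly negative regulators 5 rose, 4 fell and 8 did not pass. Not every gene on it inhibits the pathway: Rnf111, which fell, and Usp15, which did not pass, are also known to promote it. Nedd4l, a ubiquitin ligase gene that acts on SMADs, rose 1.82-fold (edgeR adjusted p = 0.00337), and Ppm1a, a SMAD phosphatase gene, 1.54-fold (adjusted p = 0.00266). Fkbp1a, whose product holds the type I receptor inactive, rose 1.46-fold (adjusted p = 0.00277). Ppp1r15a, the gene of a phosphatase subunit also known from endoplasmic reticulum stress, rose 2.62-fold (adjusted p = 0.00361). The 4 falls were Pmepa1, 3.37-fold (edgeR adjusted p = 0.0119, at 3.64 to 32.0 CPM), Trim33, 1.26-fold (0.0137), Tob1, 1.27-fold (0.0431) and Rnf111, 1.19-fold (0.0431). These falls were not followed singly through the alternative runs. Of 13 adaptors and cofactors 1 rose, 2 fell and 10 did not pass. Dab2, an endocytic adaptor gene linked to the receptors, fell 3.58-fold (edgeR adjusted p = 0.00132), from 1037 to 458 CPM in wild type and from 1576 and 1330.5 to 338 and 308 CPM in the mutant. Traf6, a ubiquitin ligase gene of the SMAD-independent branch, rose 1.53-fold (adjusted p = 0.00243), and Ep300, a coactivator acetylase gene, fell 1.31-fold (adjusted p = 0.0118, and 0.0576 without mutant oxLDL replicate 1).

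Of 15 tested genes known as TGF-beta targets in many cell types 3 rose, 4 fell and 8 did not pass. The median log2 fold change was -1.08, beside 0.01 over all genes tested. That median is the value of Id1, which was at no more than 0.991 CPM and did not pass (edgeR adjusted p = 0.275). Ltbp2, Col1a1 and Col1a2 were also near the floor, at no more than 1.32 CPM in any library. Cdkn1a, the cell cycle inhibitor p21 gene, fell 3.49-fold (edgeR adjusted p = 0.000172) and Junb, an AP-1 subunit gene, 2.93-fold (adjusted p = 0.000960). Id2 rose 2.18-fold (adjusted p = 0.000850) and Bhlhe40 4.79-fold (adjusted p = 0.000778), both genes of transcription repressors. Bhlhe40 was also higher in the mutant, by 1.32 ± 0.26 (edgeR adjusted p = 0.0472), which ended without wild-type untreated (0.139), either mutant untreated library (0.0958 and 0.143) or mutant oxLDL replicate 1 (0.0969). The list holds targets of many other signals, and its members moved both ways.

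Of 12 tested genes that depend on TGF-beta in macrophages or microglia 8 fell, 2 rose and 2 did not pass, with a median log2 fold change of -2.20. Of all tested genes 21.4% were called lower and 19.1% higher, with a median of 0.01. The fractalkine receptor gene Cx3cr1 fell 116-fold (edgeR adjusted p = 7.01e-05), from 233 to 2.81 CPM in wild type and from 576 and 571 to 3.12 and 5.70 CPM in the mutant. Fcrls, an Fc receptor-like gene, fell 9.88-fold (adjusted p = 0.000224), the complement gene C1qa 8.10-fold (adjusted p = 0.000109) and Tmem119, a microglial surface marker gene, 5.23-fold (adjusted p = 0.00153). Tmem119 was at no more than 12.8 CPM in any library. Mertk, on the same list, was higher in all oxLDL libraries (121 to 164 CPM) than in all untreated ones (65.3 to 86.0 CPM). C1qa was also lower in the mutant, by -1.89 ± 0.16 (edgeR adjusted p = 0.00943). The list was drawn up with earlier results for Cx3cr1, C1qa and Fcrls known, so its count is no independent evidence of its direction.

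**Figure D4:**
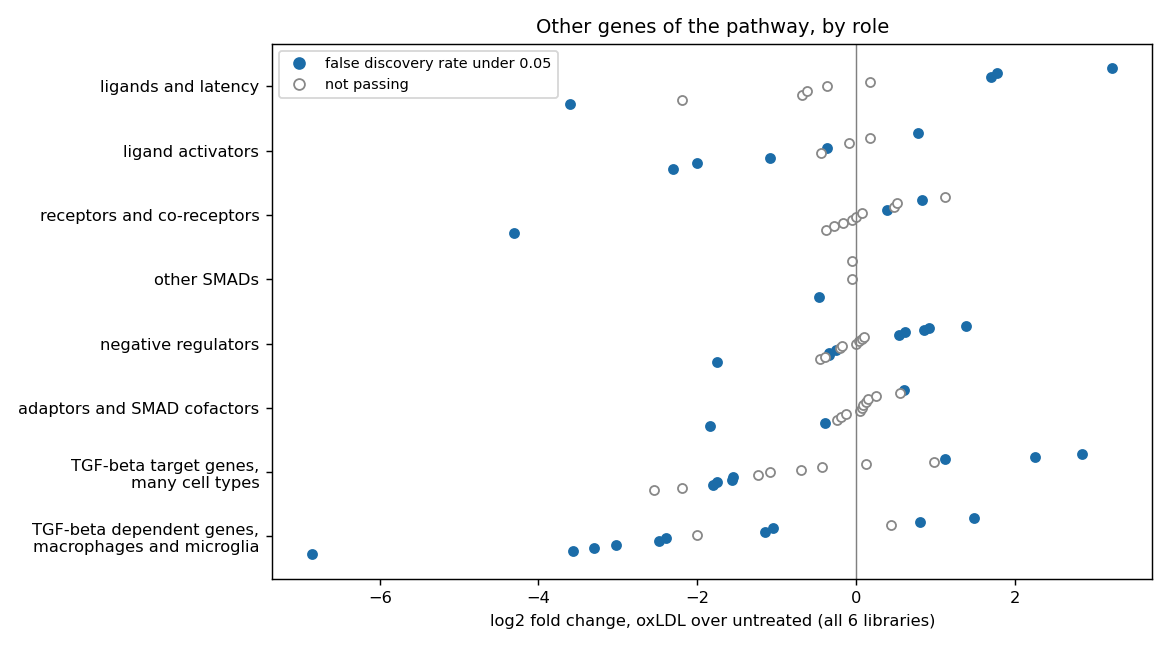
log2 fold change with oxLDL over all 6 libraries (x axis) of the tested genes of 8 pathway lists, 1 point per gene, filled where the false discovery rate was under 0.05. In 7 of the 8 lists filled points lie on both sides of 0, and the macrophage and microglia list has 8 filled points below 0 and 2 above.

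Between genotypes 2 of the 87 pathway genes were higher and 2 lower in the mutant (Mmp14 and Bhlhe40, and Bmpr1a and C1qa), or 4.60%, beside 4.05% of all tested genes. The interaction passed for 1 of the 87, Plau, which was named after its values were seen.

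Likeness of pattern was measured as the root mean square distance of log2 CPM over the 6 libraries, each gene centred on its mean, and is given as a description. Nearest to Tgfb1 were Gtf2a2, Ndufc2 and Rnf169, at distances of 0.03, 0.05 and 0.06 beside a standard deviation of Tgfb1 of 0.38. Nearest to Tgfbr1 were Cnpy4, Xdh and Gcat (0.05, 0.06 and 0.07, beside 0.31), of which Gcat shares 10.1% of its 75-base stretches with another gene. Nearest to Tgfbi were the cytokine gene Tnf, the pyrin gene Mefv and the isoprenoid synthesis gene Idi1 (0.23, 0.23 and 0.24, beside 1.62), and 16.7% of the stretches of Idi1 are shared. Tnf measured 88.4 and 14.0 CPM in wild-type untreated and oxLDL cells, 69.9 and 120 CPM in the mutant untreated pair and 10.6 and 13.3 CPM in the mutant oxLDL pair. With only 6 libraries split by treatment, many genes come near any given pattern.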

How the data were processed

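Polyadenylated RNA was sequenced as stranded 150-base paired ends, per the labels' protocols. The authors deposited expected counts per gene, which the submitters' processing notes credit to Bowtie2 2.1.0 and RSEM 1.2.15. The only build named there is the human hg19, while the genes carry mouse symbols, so the build behind the counts is unknown here. A second deposited table holds a signal per gene that its name calls TMM-normalised (trimmed mean of M-values) CPM, and edgeR is named without a version. Its values are whole multiples of 1 read in 100% of cases (tolerance 0.0001), and the recovered reads equal the rounded counts for at least 99.89% of genes.

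Expected counts were rounded and filtered with filterByExpr, leaving 12689 of 17143 genes with any count. They were tested with edgeR 4.0.16 (R 4.3.3; TMM factors, quasi-likelihood F-test, Benjamini-Hochberg over all genes). An additive model gave oxLDL across genotypes and genotype across treatments, and a model of 4 group means gave the other comparisons, in which a single wild-type library is assumed to vary like the mutant pairs. SE is the log2 fold change over the square root of F, and 95% intervals use the same degrees of freedom. CPM values divide counts by the TMM-adjusted library size, and wild-type fold changes use a prior count of 2. The fitting was tested on simulated data. Lengths and shared 75-base stretches come from GENCODE M21, in which the 9 genes share none with other genes and overlap no other exon. A length merges the exons of all protein-coding transcripts of a gene and may differ from the annotation behind the counts. Ranks and ratios per kilobase between genes depend on this choice. Promoters come from RefSeq, with entries for Tgfb1, Tgfbr1, Tgfbr2, Smad3 and Tgfbi.

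Named were all 9 genes, of each pathway list up to 4 called genes with the smallest p for oxLDL and up to 2 for genotype, and the 3 genes nearest in pattern to Tgfb1, Tgfbr1 and Tgfbi. Beyond this rule the 4 falls and Usp15 of the regulator list were named, as were Id1, Ltbp2, Col1a1, Col1a2 and Mertk. Members, lists and rules were chosen with earlier results of these data known. Alternatives were RLE size factors, no filter on low counts, DESeq2 1.42.0, a replicate block, each library left out and, added after seeing the data, the recovered reads.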

Additional observations from a re-analysis of the deposited data

Results flagged for a closer look

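Plau, the urokinase gene and an activator of latent TGF-beta and of other matrix proteins, changed differently with oxLDL in the genotypes. It measured 25.3 CPM in wild-type untreated and 65.8 CPM in wild-type oxLDL cells, and 173 and 176 CPM in mutant untreated and 110.5 and 96.6 CPM in mutant oxLDL cells. The oxLDL change was lower in the mutant by a log2 interaction of -2.13 ± 0.18 (SE; edgeR adjusted p = 0.0140), resting on 1 library in each wild-type group. The call ended without mutant untreated replicate 1 (adjusted p = 0.0598) or replicate 2 (0.0589). Along the same contrast the pancreatic marker sum went from 277 to 1.85 CPM with oxLDL in wild type and from 3.09 and 3.47 to 206 and 163 CPM in the mutant, and its part in the Plau difference was not tested.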

How the results depend on the processing

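With oxLDL over all libraries, 5 genes were called with RLE size factors, without the filter, with DESeq2, with the recovered reads and with the replicate block, and 4 to 5 with 1 library left out. In the mutant 6 were called without the filter, which added Tgfbr1, and 3 to 5 with 1 library left out. Between genotypes over both treatments DESeq2 called 1. Among untreated cells 2 were called without the filter, 1 with DESeq2 and 0 to 2 with 1 library left out. Of 63 log2 fold changes of the 9 genes, 45 held under every alternative run. For a tested value this means the same direction and side of the threshold. The 63 include the wild-type change of each of the 9 genes, which has no p and no threshold. These wild-type changes met only another prior count and RLE size factors, were held to a counting interval, and are all among the 45. The cause of the changes was not tested.

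Signs turned, each time in a value that had not passed, when 1 library was left out. For oxLDL, Tgfbr2 then ranged from -0.24 to 0.39 over all libraries and from -0.13 to 0.95 in the mutant. For genotype over both treatments the ranges were -0.17 to 0.63 for Tgfbr2, -0.63 to 0.20 for Smad3, -0.27 to 0.34 for Smad7 and -0.13 to 0.55 for Tgfbi. Untreated, Tgfbr2 ranged from -0.73 to 0.22. Among oxLDL-treated cells the ranges were -0.21 to 0.061 for Tgfb1, -0.21 to 0.51 for Smad3 and -0.48 to 0.14 for Tgfbi, and the Skil interaction ranged from -0.22 to 0.027.

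Over all genes, calls for oxLDL in the mutant fell from 4515 to 2626 without mutant untreated replicate 2. Genotype calls numbered 514 over both treatments (1387 without the filter, 1500 with DESeq2, 8 to 877 with 1 library left out), 896 untreated (2435 without the filter, 80 to 1822) and 61 with oxLDL (974, 393 with DESeq2, 5 to 473). Interaction calls numbered 62 (546, 221 and 19 to 246). Pathway genes called between genotypes numbered 4 (15 without the filter, 16 with DESeq2, 1 to 7 with 1 library left out), and for the interaction 1 (9, 2 and 0 to 3).

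Mutant samples share replicate numbers 1 and 2 in both treatments, which the labels do not tie to an animal or day. The correlation over genes of their replicate differences was 0.20 in 2 pairs. The replicate block gave 5 called genes with oxLDL over all libraries, 6 in the mutant (Tgfbr2 joined at 0.40, edgeR adjusted p = 0.0124) and 0 for the interaction, with 162 genes called in all for the interaction. It called 5 receptor and co-receptor genes with oxLDL, against 3 without it. The genotype comparisons could not be fitted with the block. Depth limits Smad7 most, at 44 to 73 counts.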
